A study of Homo sapiens with 6 samples.

Results

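The nuclear-encoded subunits of oxidative phosphorylation (OXPHOS) were compared between MDA-MB-436 cultures with and without doxycycline, which induced silencing of MUC1. Members were chosen by symbol, as the genes named NDUFA, NDUFB, NDUFC, NDUFS or NDUFV, SDHA to SDHD, UQCR or CYC1, COX5 to COX8 and ATP5, with assembly factors and mitochondrially encoded genes left out. Of the 37887 rows of the count table, 128 matched these patterns, 45 were dropped as pseudogene names and 83 were members. Complex I held 36 of them, complex II 4, complex III 9, complex IV 15 and complex V 19. NDUFA4 was placed in complex IV, of which it is known to be a subunit in spite of its name, and complex V included the inhibitor ATP5IF1 and the paralog ATP5MGL. COX4I1 and NDUFAB1 are OXPHOS subunits that the symbol patterns did not reach, and they are given separately.

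MDA-MB-436 is an established triple-negative breast cancer line with a BRCA1 mutation. Every culture held a stably integrated, doxycycline-inducible shRNA against MUC1, a transmembrane mucin. They were grown in triplicate with 0.1% DMSO (control, 3 libraries) or with 500 ng/ml doxycycline (shMUC1, 3 libraries), and poly(A) RNA was sequenced from strand-specific libraries. The sample titles name the control a control shRNA, while the other labels describe vehicle-treated MUC1 shRNA cells, and the second reading was used. Cells given doxycycline without the MUC1 shRNA were not analysed here, and effects of the drug and of silencing cannot be told apart. Doxycycline is an inhibitor of mitochondrial ribosomes, which translate the mitochondrially encoded subunits of the same complexes. The length of treatment was not given for this line, and only 1 MUC1 shRNA was used.

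OXPHOS is carried out by 5 protein complexes of the inner mitochondrial membrane. Complex I (NADH dehydrogenase) and complex II (succinate dehydrogenase) pass electrons to coenzyme Q, complex III passes them to cytochrome c, and complex IV (cytochrome c oxidase) passes them to oxygen. Complexes I, III and IV pump protons, and complex V (ATP synthase) uses the gradient to make ATP. Most subunits are encoded in the nucleus and imported, whereas a small set in complexes I, III, IV and V is encoded in mitochondrial DNA. Complex II is encoded in the nucleus alone.

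Libraries held 18678307 to 27825546 counts, and edgeR tested 15355 genes. MUC1 had 93, 84 and 102 counts in control and 72, 51 and 34 in shMUC1 libraries. It fell by 0.84 on the log2 scale (SE 0.214, edgeR adjusted p = 0.00119), with no overlap between groups in counts per 1000000 (CPM). The keratins KRT8 and KRT18 and the intermediate filament VIM were expressed at 127 to 840.0 CPM in every library, and the mean of KRT8 rose from 426 to 825 CPM and that of KRT18 from 131 to 266 CPM, while VIM fell from 718 to 417 CPM. ESR1 and PGR, which define the hormone receptors absent from triple-negative lines, stayed at or under 0.645 CPM, and ERBB2 lay between 38.4 and 47.3 CPM and fell by 0.20 on the log2 scale (adjusted p = 0.0074). Markers of immune, endothelial and stromal cells (PTPRC, CD3E, CD14, PECAM1, CDH5, COL1A1, PDGFRB) lay between 0 and 7.61 CPM in all 6 libraries. CD14 and PTPRC were higher and PECAM1 and COL1A1 lower in shMUC1 libraries, at these low levels. The part of any of these markers in the results was not tested. In bulk RNA, fewer cells with a transcript and less of it per cell cannot be told apart.

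To determine whether transcripts of the OXPHOS subunits change when MUC1 is silenced, control and shMUC1 libraries were compared. Small rises across all 5 complexes were found. Of these 83 genes, 78 passed the filter on low counts and were tested, and 47 of these (60.3%) were higher in shMUC1 cells at an adjusted p under 0.05, against 25.2% of all genes tested. No member was lower (0 of 78, against 23.6% of all genes). In the main edgeR fit none was lower at an unadjusted p under 0.05. DESeq2 and limma-voom also gave 0 lower members at either threshold. At an unadjusted p under 0.05, edgeR gave 1 lower member with library totals only and 1 with a filter at a mean of 50 counts. With a trend on GC content and exon length removed it gave 2, of which 1 (ATP5MC2) was lower at an adjusted p under 0.05. The changes were modest. No member passed a 2-fold change in either direction, against 5.95% of all genes tested. The median log2 fold change of the 78 members was 0.19, beside 0.00058 for all 15355 genes, and 69 members had a positive and 9 a negative value.

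The libraries of the groups were apart for most of the members. In 49 of 78 members every shMUC1 library lay above every control library, against 28.1% of all genes tested. In 1 member (ATP5MC2) every shMUC1 library lay below, against 26.8% of all genes. Together the 83 members took 0.549%, 0.535% and 0.559% of all counts in control and 0.623%, 0.616% and 0.632% in shMUC1 libraries. Their summed level rose from 5438 ± 92.2 to 6290.1 ± 47.8 CPM (SD, n = 3 each), which is 1.16 times the control value. The summed ratios of shMUC1 to control were 1.18 for complex I, 1.19 for complex II, 1.14 for complex III, 1.17 for complex IV and 1.13 for complex V.

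**Figure D1:**
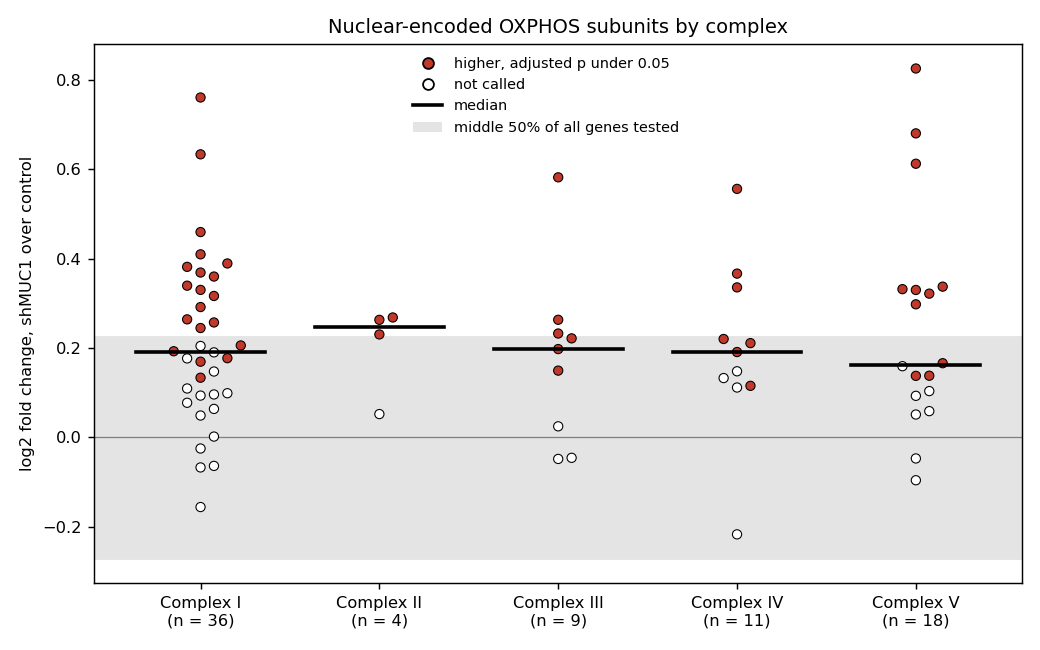
Log2 fold change of each tested nuclear-encoded OXPHOS subunit (y axis, shMUC1 over control) in complexes I to V (x axis, with the number tested), with filled points for members at an adjusted p under 0.05, bars for the median and a grey band for the middle 50% of all genes tested. The 5 medians lie between 0.16 and 0.25, and all 47 filled points lie above 0.

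Member genes are spread over the genome and have promoters of varied sequence. RefSeq promoters (build GRCh38.p14, from 250 bases before to 50 after the annotated start) were matched to 68 of 83 members, 3 of them by another symbol. Where more than 1 promoter was listed, as for 8 of these members, the first on the strand of the gene and within 5 kb of it was used, and the first listed for any other gene. Words bound by factors that are known to act on respiratory genes were searched on both strands. The NRF1 word GCGCATGC was present in 20.6% of member promoters and in 3.28% of those of all 27305 genes with a listed promoter. These genes were not limited to those tested here, and were not matched to the members by expression. For the ETS word CCGGAAG, read by GABP, the shares were 27.9% and 10.7%. The YY1 word AAGATGGC was found in 16.2% and 3.03%, and the word AAGGTCA of estrogen-related receptors in 11.8% and 3.96%. The SP word GGGCGG (60.3% and 44.6%) and the NFY word CCAAT (35.3% and 35.7%) were frequent in both. No word contains another, although some can overlap at their ends, such as CCGGAAG with AAGATGGC or AAGGTCA, and a match describes the sequence alone.

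Between the 38 matched members that rose and the 27 tested ones that were not called, the shares of the 6 words differed in both directions, and none of these differences was tested. NRF1 words were present in 15.8% of promoters of higher members and 29.6% of those not called, ETS words in 23.7% and 37% and SP words in 60.5% and 66.7%. For YY1 the shares were 18.4% and 14.8%, for the estrogen-related receptors 13.2% and 11.1%, and for NFY 36.8% and 29.6%. The promoters of 4 members are printed here because they belong to the highest members of complexes I and V and to a pair of genes that encode the same protein but changed unequally. Capitals mark any of the 6 words on either strand. ATP5IF1 (chr1:28235874-28236173, plus strand) holds 1 SP and 1 NFY word. NDUFA2 (chr5:140647581-140647880, minus strand) holds 1 SP and 2 NFY words. ATP5MC1 (chr17:48892537-48892836, plus strand) holds 4 NFY words, of which the nearest begins 22 bases before the start. ATP5MC2 (chr12:53676034-53676333, minus strand, the first of 3 listed) holds no NFY word, 1 SP word, and 1 NRF1 word that begins 40 bases before the start.
ATP5IF1: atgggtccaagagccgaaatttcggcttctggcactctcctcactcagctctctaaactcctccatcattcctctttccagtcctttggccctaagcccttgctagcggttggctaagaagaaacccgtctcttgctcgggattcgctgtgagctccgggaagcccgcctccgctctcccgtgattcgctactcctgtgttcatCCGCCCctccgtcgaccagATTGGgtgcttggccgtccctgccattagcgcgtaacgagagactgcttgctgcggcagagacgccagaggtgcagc
NDUFA2: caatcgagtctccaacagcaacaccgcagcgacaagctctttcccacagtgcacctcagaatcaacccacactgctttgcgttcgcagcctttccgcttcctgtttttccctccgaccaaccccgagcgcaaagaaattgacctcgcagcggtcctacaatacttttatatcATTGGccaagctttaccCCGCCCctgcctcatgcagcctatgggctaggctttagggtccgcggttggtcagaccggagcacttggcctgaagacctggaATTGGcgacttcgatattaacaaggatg
ATP5MC1: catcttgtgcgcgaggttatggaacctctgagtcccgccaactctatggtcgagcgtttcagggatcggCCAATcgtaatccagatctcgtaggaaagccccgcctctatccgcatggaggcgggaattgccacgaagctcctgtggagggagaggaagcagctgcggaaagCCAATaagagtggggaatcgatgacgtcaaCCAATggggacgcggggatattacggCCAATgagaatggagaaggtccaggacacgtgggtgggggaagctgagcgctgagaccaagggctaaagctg
ATP5MC2: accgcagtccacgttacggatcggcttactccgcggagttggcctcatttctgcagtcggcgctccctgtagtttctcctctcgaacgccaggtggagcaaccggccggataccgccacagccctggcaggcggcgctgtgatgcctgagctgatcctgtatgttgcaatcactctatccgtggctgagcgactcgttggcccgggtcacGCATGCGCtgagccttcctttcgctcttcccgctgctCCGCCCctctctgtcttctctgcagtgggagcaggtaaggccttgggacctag

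Complex I oxidises NADH at the tip of its matrix arm (the N module), reduces coenzyme Q in the Q module and pumps protons in a membrane arm with a proximal and a distal part. Of its 36 nuclear-encoded members, all tested, 20 rose (55.6%, against 25.2% of all genes tested), with a median log2 fold change of 0.19. The N module had 6 of 10 members higher (median 0.18), the Q module 3 of 6 (median 0.26), the proximal membrane arm 6 of 9 (median 0.18) and the distal membrane arm 5 of 11 (median 0.20). Rises were thus seen in each module, but these are small sets of 6 to 11 genes, and differences between them were not tested.

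NDUFA2, an accessory subunit of the N module, changed most in complex I. Its levels were 13.9, 14.5 and 14.8 CPM in control and 24.6, 24.9 and 23.4 CPM in shMUC1 libraries. The groups were well apart, at 14.4 ± 0.467 and 24.3 ± 0.793 CPM (SD, n = 3 each), and the log2 fold change was 0.76 (SE 0.086, edgeR adjusted p = 1.88e-09). The gene lies on chromosome 5 from 140638740 to 140647785 (GRCh38, minus strand), and 17% of its coding bases lie opposite exons of IK. NDUFA5, an accessory subunit of the Q module on chromosome 7 (123536997 to 123558255, minus strand), had 62.4, 70.6 and 64.8 CPM in control and 105, 101 and 101 CPM in shMUC1 libraries. All shMUC1 values lay above all control values, with a log2 fold change of 0.63 (SE 0.048, adjusted p = 8.24e-14). NDUFA5 has 12 named pseudogenes, so its count is uncertain. In the distal membrane arm, NDUFB6 rose by 0.46 on the log2 scale (SE 0.0572, adjusted p = 1.55e-08) and NDUFB10 by 0.41 (SE 0.068, adjusted p = 3.83e-06).

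Core subunits of complex I, which are conserved from bacteria, differed in their values. NDUFS1, which carries iron-sulfur clusters of the N module, had 157, 153 and 158 CPM in control and 173, 179.7 and 175 CPM in shMUC1 libraries. The groups did not overlap, and it rose by 0.17 (SE 0.0367, adjusted p = 0.000194). NDUFV1, which binds NADH and the flavin, had 49, 57 and 63.3 CPM in control and 65, 63.7 and 65.4 CPM in shMUC1 libraries. Control values were wide and reached close to the shMUC1 values. NDUFV1 rose by 0.19 (SE 0.0615, adjusted p = 0.0089), but without control replicate 1 the log2 fold change was 0.11 and the adjusted p 0.156. NDUFS3, NDUFS7 and NDUFS8, core subunits of the Q module, had log2 fold changes of 0.064, 0.19 and -0.067 and were not called (adjusted p = 0.168, 0.317 and 0.641). NDUFV2, an iron-sulfur subunit of the N module, was at 1.69 ± 0.202 CPM in control and 1.68 ± 0.126 CPM in shMUC1 cells (SD, n = 3 each) and was not called.

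Smaller rises in complex I were seen in accessory subunits of each module. NDUFA9, which binds NADPH in the Q module, rose by 0.39, and NDUFA12 and NDUFV3 of the N module by 0.38 and 0.37. NDUFB3 and NDUFB11 of the distal arm rose by 0.36 and 0.29, and NDUFC2, NDUFC1 and NDUFA8 of the proximal arm by 0.32, 0.26 and 0.24. The lowest called members with groups that did not overlap were NDUFB9 (0.21), NDUFV1 (0.19), NDUFS5 (0.18) and NDUFS1 (0.17). Some of the calls rested on particular libraries. NDUFA3 (0.34) was not called without control replicate 2 (0.22) or without shMUC1 replicate 2 (0.27). NDUFS4 (0.26) was not called without control replicate 1 (0.21) or 2 (0.21), or without shMUC1 replicate 2 (0.26) or 3 (0.19). NDUFA10 (0.13) was not called without control replicate 1 (0.078), or without shMUC1 replicate 1 (0.13) or 3 (0.092), and not with DESeq2 (adjusted p = 0.0725), limma-voom (adjusted p = 0.0534), library totals only or a mean of at least 50 counts. NDUFS4 and NDUFA10 were also the only called members whose groups overlapped.

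**Figure D2:**
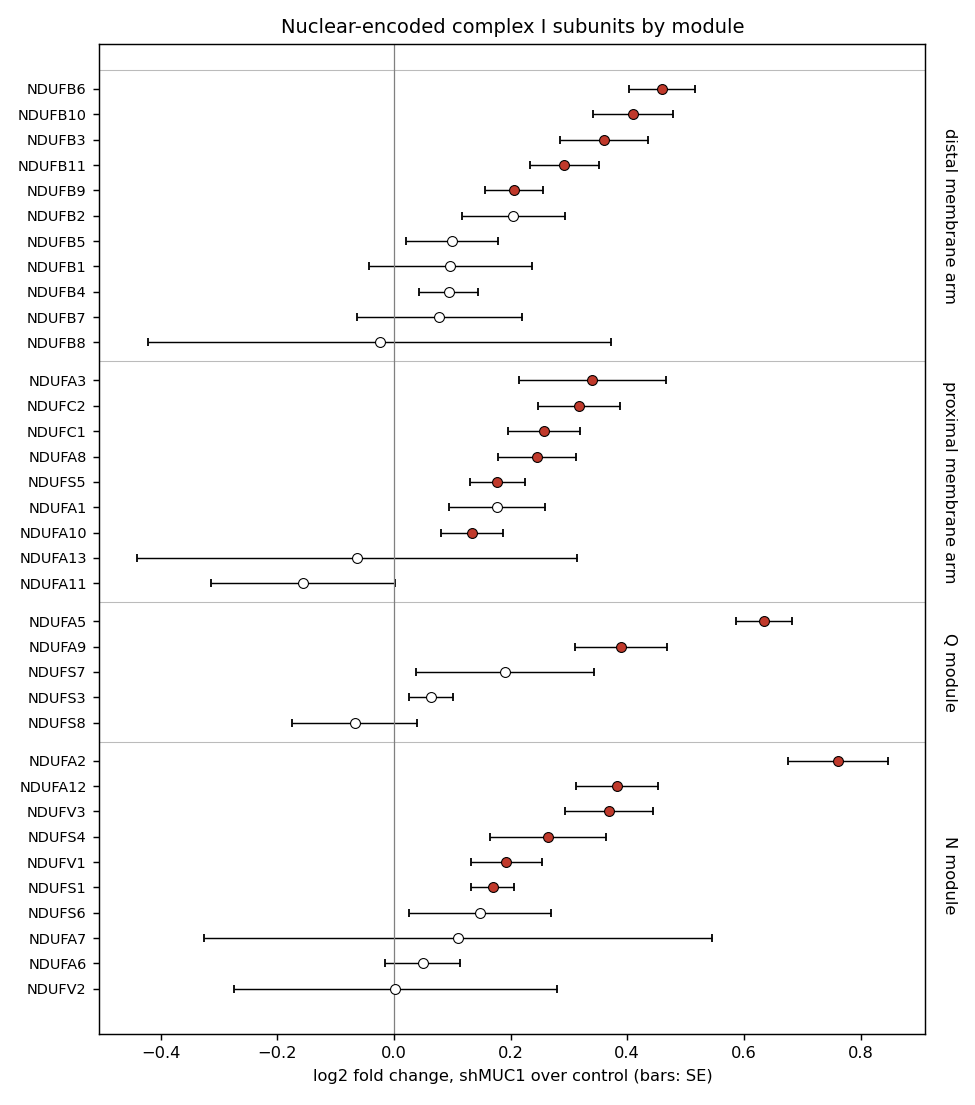
Log2 fold change (x axis, shMUC1 over control, bars show the SE) of 35 of the 36 nuclear-encoded complex I subunits (y axis) by module, with filled points for members at an adjusted p under 0.05. NDUFA2 (0.76) and NDUFA5 (0.63) lie farthest to the right, and the widest bars belong to NDUFA7, NDUFB8, NDUFA13 and NDUFV2.

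Complex II is the succinate dehydrogenase of the citric acid cycle and is anchored in the membrane by SDHC and SDHD. Both anchors and the iron-sulfur subunit SDHB rose, while the flavoprotein SDHA did not pass the test. SDHC, on chromosome 1 from 161314257 to 161375340 (plus strand), had 463, 462 and 449 CPM in control and 545, 558 and 551 CPM in shMUC1 libraries. The groups were far apart relative to their spread, with a log2 fold change of 0.27 (SE 0.0298, adjusted p = 1.22e-09). SDHD rose by 0.26 (SE 0.0566, adjusted p = 0.000179) and SDHB by 0.23 (SE 0.0495, adjusted p = 0.000176). SDHA had 28.4, 25 and 25.7 CPM in control and 27.3, 26.9 and 27.7 CPM in shMUC1 libraries. The groups overlapped, and its log2 fold change was 0.052 (SE 0.0751, adjusted p = 0.601). SDHA, SDHC and SDHD have 3, 4 and 3 named pseudogenes, and their counts are uncertain.

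Complex III has a pair of core proteins, a pair of nuclear-encoded redox subunits and small subunits. Of its 9 members 6 rose (66.7%, against 25.2% of all genes tested), with a median of 0.20. UQCR10, a small subunit on chromosome 22 (29767369 to 29770413, plus strand), had 8.71, 11 and 12.1 CPM in control and 14.7, 15.8 and 17.4 CPM in shMUC1 libraries. Values varied within each group, but the groups did not overlap, and the log2 fold change was 0.58 (SE 0.112, adjusted p = 3.97e-05). CYC1, the cytochrome c1 subunit, rose by 0.26 (SE 0.0349, adjusted p = 5.93e-08), from 237 ± 8.36 to 285 ± 8.73 CPM (SD, n = 3 each). The core proteins UQCRC1 and UQCRC2 rose by 0.23 and 0.20, and the small subunits UQCRB and UQCRH by 0.22 and 0.15. UQCRFS1, the Rieske iron-sulfur protein and the other redox subunit, had a log2 fold change of -0.048 (SE 0.0559, adjusted p = 0.508) with overlapping groups. UQCR11 (0.025) and UQCRQ (-0.046) were not called.

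In complex IV the nuclear-encoded members surround a mitochondrially encoded core. Of 15 members 11 were tested and 7 rose (63.6%, against 25.2% of all genes tested), with a median of 0.19. When a trend on GC content and annotated exon length was removed, 5 were higher and the median was 0.083. COX5A, on chromosome 15 from 74919791 to 74938168 (minus strand), had 25.3, 27.4 and 26.1 CPM in control and 40.6, 35.6 and 39.8 CPM in shMUC1 libraries. The groups did not overlap, and the log2 fold change was 0.56 (SE 0.0708, adjusted p = 2.52e-08). Its companion COX5B, which binds zinc, had a log2 fold change of 0.11 (SE 0.0518) and was not called (adjusted p = 0.073). This result held in 15 of the 16 alternative fits given below, and COX5B was called higher in the remaining fit. COX6A1 rose by 0.37, NDUFA4 by 0.34, COX7C by 0.22, COX8A by 0.21 and COX7A2 by 0.19. COX6B1 (0.12, adjusted p = 0.0203) was not called without control replicate 2 (0.10) or 3 (0.10), or without shMUC1 replicate 2 (0.092) or 3 (0.11), and not with library totals only, a mean of at least 50 counts or the GC and length trend removed. COX6C (0.15) and COX7B (0.13) were not called.

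The tissue-specific isoforms of complex IV were at or near the floor. COX6A2 and COX7A1 are known from heart and skeletal muscle, and COX6B2, COX7B2 and COX8C from testis. COX6A2, COX7B2 and COX8C had 0 counts in all 6 libraries. With a floor of 3 counts per library, a level of up to 0.161 CPM in the shallowest library is allowed. COX7A1 had 6, 5 and 6 counts in control and 0, 7 and 5 in shMUC1 libraries, and took 0.273% ± 0.0505 of the counts of COX7A1 and COX7A2 in control and 0.181% ± 0.157 in shMUC1 cells (SD, n = 3 each). COX6B2 had 9, 17 and 16 counts in control and 16, 3 and 16 in shMUC1 libraries, and its log2 fold change of -0.22 (SE 0.517, adjusted p = 0.763) was the lowest of the members tested. Without shMUC1 replicate 2 it was 0.28.

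Complex V joins a catalytic F1 head to a membrane ring of c subunits, with a peripheral stalk and accessory membrane subunits. Of 19 members 18 were tested and 11 rose (61.1%, against 25.2% of all genes tested), with a median of 0.16. Its spread was wide. The F1 head had 4 of 5 members higher (median 0.17) and the peripheral stalk 3 of 4 (median 0.22). The accessory membrane subunits had 2 of 5 (median 0.16) and the c ring 1 of 3 (median 0.059). The share in the c ring (33.3%) was near that of all genes, and differences between these small parts were not tested. ATP5IF1, the inhibitor that binds F1 and limits ATP hydrolysis when the proton gradient fails, had the highest log2 fold change of all 78 members tested. It had 44.7, 45.5 and 44.4 CPM in control and 78.4, 81.2 and 79.1 CPM in shMUC1 libraries. The groups were far apart, at 44.9 ± 0.576 and 79.6 ± 1.48 CPM (SD, n = 3 each), with a log2 fold change of 0.83 (SE 0.0508, adjusted p = 2.57e-16). The gene lies on chromosome 1 from 28236109 to 28246906 (plus strand) and has no named pseudogene or coding overlap.

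ATP5IF1 was compared with the enzyme it acts on. ATP5F1B, the catalytic beta subunit of F1, had 705, 702 and 721 CPM in control and 787, 776 and 778 CPM in shMUC1 libraries. That was a log2 fold change of 0.14 (SE 0.028, adjusted p = 8.32e-05). Per 100 counts of ATP5F1B there were 6.35, 6.49 and 6.16 counts of ATP5IF1 in control and 9.97, 10.5 and 10.2 in shMUC1 libraries, with no overlap (two-sided exact permutation p = 0.1, the smallest that 3 against 3 libraries allow). ATP5F1A, the alpha subunit, rose by 0.17, ATP5F1C (gamma) by 0.34 and ATP5F1D (delta) by 0.32, and ATP5F1E (epsilon) had a log2 fold change of -0.047 and was not called (adjusted p = 0.445).

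The c subunit is encoded by 3 genes whose mature proteins are identical, and 1 of the 3 rose. ATP5MC1, on chromosome 17 from 48892765 to 48895871 (plus strand), had 30.9, 29 and 30.05 CPM in control and 51.8, 48.3 and 43.6 CPM in shMUC1 libraries. It rose by 0.68 on the log2 scale (SE 0.067, adjusted p = 7.11e-11). ATP5MC2 had 57.2, 55.7 and 59.5 CPM in control and 54.2, 52.9 and 54.3 CPM in shMUC1 libraries, so that all shMUC1 values lay below, but its log2 fold change of -0.096 (SE 0.0532) was not called (adjusted p = 0.139). ATP5MC3 had a log2 fold change of 0.059 (SE 0.0346, adjusted p = 0.163). ATP5MC1 made up 10.3%, 9.96% and 9.82% of the summed counts of the 3 genes in control and 15.7%, 15.1% and 13.8% in shMUC1 libraries, with no overlap (two-sided exact permutation p = 0.1). ATP5MC1 and ATP5MC2 have 7 and 3 named pseudogenes, and 1 of those of ATP5MC1 held 37 counts over the 6 libraries.

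ATP5MG, the g subunit of the membrane part, rose by 0.61 (SE 0.0857, adjusted p = 1.71e-07), from 16.3 ± 0.382 to 24.9 ± 1.96 CPM (SD, n = 3 each). It shares 56.5% of its coding bases with another annotated gene on the same strand and has 6 named pseudogenes, so its count is uncertain. The other accessory membrane subunit that rose was ATP5MPL (0.33), and ATP5ME (0.16), ATP5MD (0.10) and ATP5MF (0.051) were not called. In the peripheral stalk ATP5PO rose by 0.33, ATP5PD by 0.30 and ATP5PB by 0.14, and ATP5PF (0.093) was not called. ATP5MGL had 7, 8 and 4 counts in control and 11, 2 and 2 in shMUC1 libraries and was not tested.

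**Figure D3:**
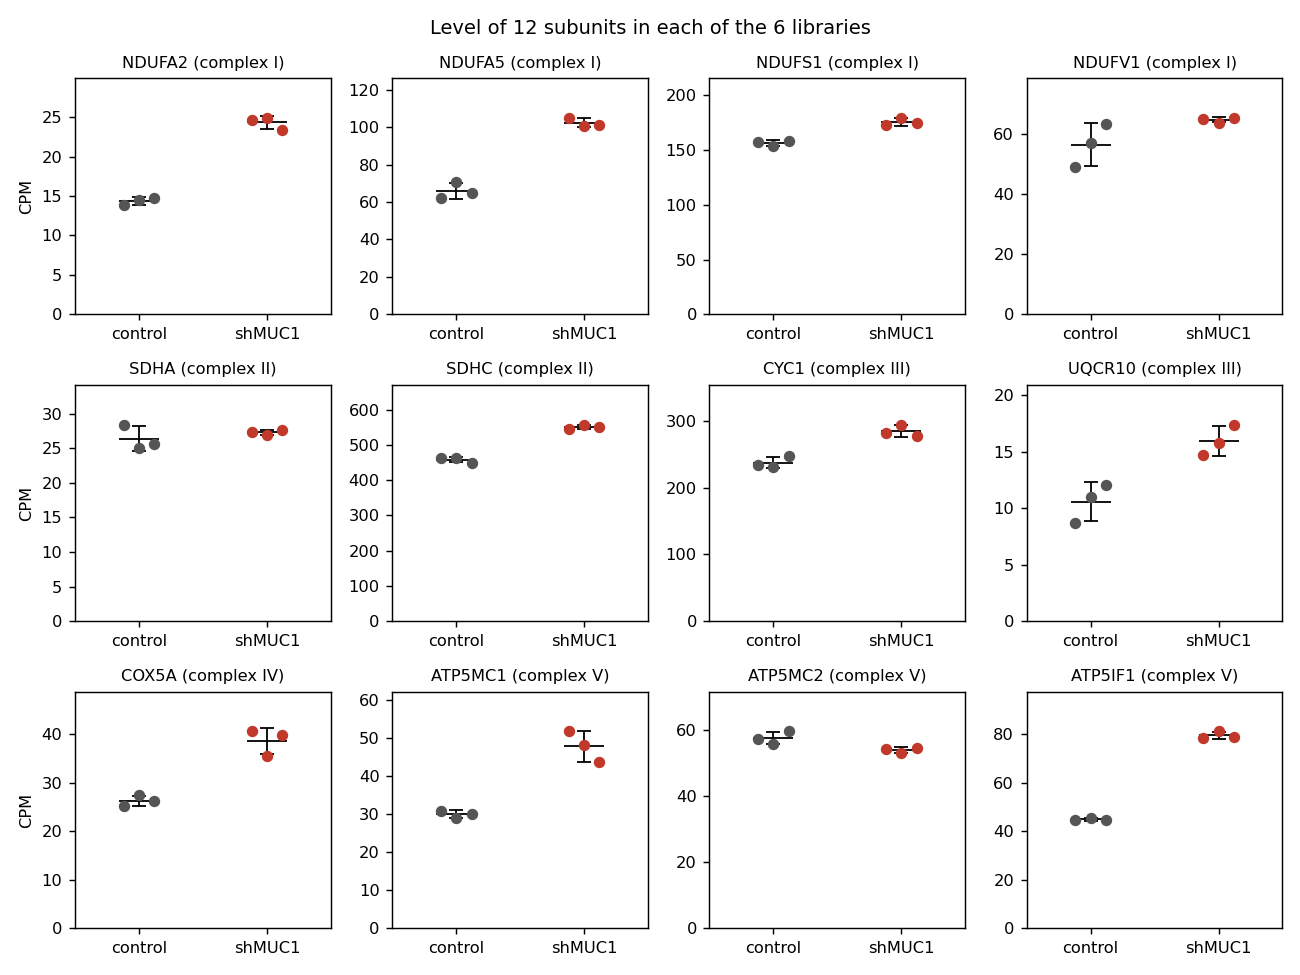
Level in CPM (y axis, from 0, one scale per panel) of 12 subunits in the 3 control and 3 shMUC1 libraries (x axis), with points for libraries and bars for mean ± SD. ATP5IF1, NDUFA2, NDUFA5, ATP5MC1, COX5A and UQCR10 have shMUC1 points above all control points, whereas the points of SDHA overlap and those of ATP5MC2 lie slightly lower in shMUC1 cells.

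Levels of the members, per kilobase of annotated exon, covered a wide range in control cells. ATP5F1B was highest at 305 ± 4.33 CPM per kb, followed by UQCRH (223 ± 3.88) and NDUFS5 (210.4 ± 15.4), where the last pair overlapped within their spread. CYC1 (120.2 ± 4.23), COX6B1 (119 ± 2.33) and COX8A (118 ± 10.996) came next and did not differ beyond their spread (SD, n = 3 for each). At the low end of the members tested were COX6B2 (0.151), NDUFA13 (0.388), NDUFA7 (0.435), NDUFB8 (0.441) and NDUFV2 (0.623 CPM per kb). By this measure, subunits of the same complex differed by far more than the groups did. Annotated exon length can differ from the length of the transcripts present. It was 14160 bases for SDHC, with 673 coding bases, and 8383 bases for SDHA, with 2126. Reads shared with other genes or pseudogenes can also be lost from a count. The part of length and counting in the differences between subunits was not tested. In complex II, SDHA was at 3.14 ± 0.218 CPM per kb, beside 32.3 ± 0.534 for SDHC, 26.2 ± 0.412 for SDHB and 20.04 ± 1.8 for SDHD.

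Among the members tested, the lowest levels named above belonged to genes that share sequence with other annotated genes. In GENCODE 29, 15 members have coding bases inside an exon of another gene on the same strand, in 12 of them for at least 50% of the coding bases. The share was 100% for COX6B2, 85.2% for NDUFB8, 84.7% for NDUFV2, 78.3% for NDUFA7 and 55.2% for NDUFA13. Counting rules often drop reads that fall in more than 1 gene, and the part of this in these low counts was not tested. Of the 15 members 7 were higher (46.7%, median 0.11). Of the 63 tested members without such an overlap 40 were higher (63.5%, median 0.19), against 25.2% of all genes tested. The 7 were NDUFC2 (76.9%), NDUFA9 (67.9%), ATP5PO (62.6%), ATP5MG (56.5%), COX8A (55.1%), COX6A1 (53.5%) and SDHD (47.7%), and their counts are uncertain. Named pseudogenes exist for 44 members, of which 27 were higher (61.4%), beside 20 of 34 tested members without one (58.8%). Coding bases of 15 members, some of them among those above, lie opposite a gene on the other strand, for example NDUFS7, NDUFB2 and ATP5ME at 44.0% to 48.5% of the coding bases. Whether reads were counted by strand was not given in the sources used here.

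Calls were counted by depth. All 47 calls were among the 71 members whose mean reached 100 counts per library (66.2%, against 31.7% of all genes with such a mean). No call was made among the 7 tested members under that mean (NDUFA7, NDUFA13, NDUFB8, NDUFV2, COX6B2, UQCR11 and ATP5ME), and at this depth a change of the median size seen over the members was not detectable there. Their standard errors ran from 0.20 (UQCR11) to 0.517 (COX6B2) on the log2 scale.

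**Figure D4:**
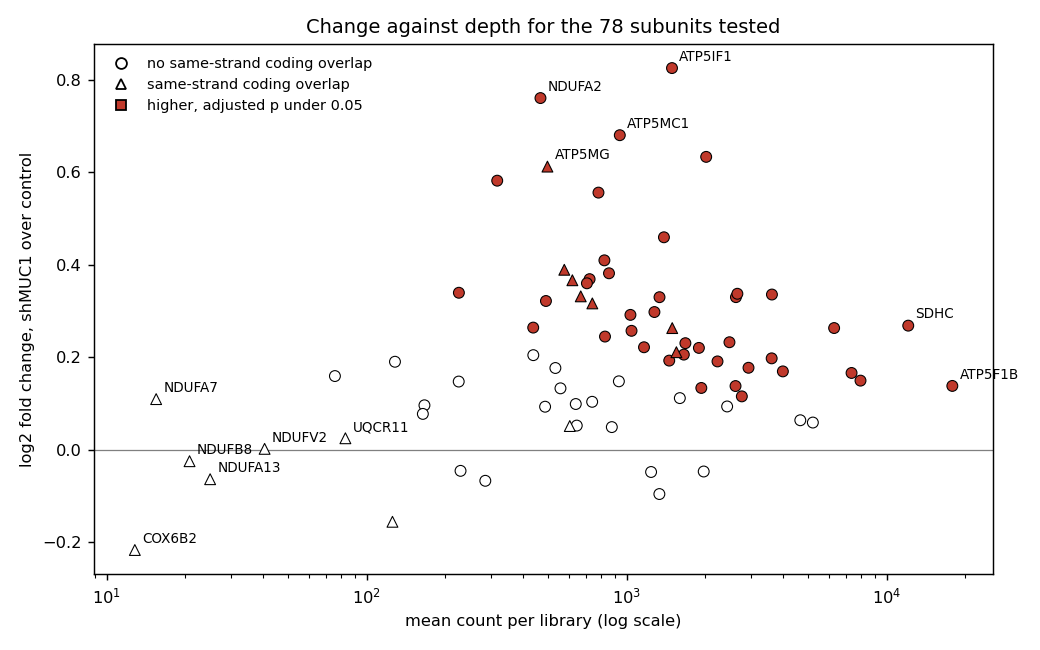
Log2 fold change (y axis, shMUC1 over control) against the mean count per library (x axis, log scale) for the 78 subunits tested, with triangles for members that share coding bases with a gene on the same strand and filled symbols for an adjusted p under 0.05. No symbol left of 100 counts is filled, and ATP5IF1 (0.83) is the highest point.

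Member genes were short in annotated exon sequence. The median annotated exon length was 2468.5 bases, beside 4767 for all genes tested, and the median of the longest 3′ untranslated region was 569 bases, beside 1660, while median GC content was close (47.9% and 47.9%). Genes with the word ATCAGTA in a 3′ untranslated region are described here because of earlier results of these data, so their shares are no evidence. Of 1875 such genes 42.1% were lower and 21.0% higher, beside 25.1% and 27.9% of all 13083 tested genes with such a region. Of genes with no TCAGTA in it 29.8% were higher and 19.7% lower. ATCAGTA was present in 10.3% of tested members and 14.3% of all tested genes. The 8 members with it (NDUFB2, NDUFB4, SDHC, UQCRB, COX7B, COX7C, ATP5PB, ATP5F1E) had 4 higher, 0 lower by edgeR (0 at an unadjusted p under 0.05) and a median of 0.17. Of 54 tested members with no TCAGTA 32 (59.3%) were higher, beside 29.8% of 7628 genes. When a trend on GC content and annotated exon length was removed from each library, 40 members were higher and 1 (ATP5MC2) lower, and the median was 0.16.

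The mitochondrially encoded partners of these subunits also rose. All 13 of these genes were called higher, against 25.2% of all genes tested, with a median log2 fold change of 0.45. They took 3.70%, 4.17% and 3.35% of all counts in control and 4.94%, 5.12% and 5.22% in shMUC1 libraries. In complex IV, MT-CO1, MT-CO2 and MT-CO3, the catalytic core, rose by 0.58, 0.50 and 0.54, and in complex V MT-ATP6 and MT-ATP8 rose by 0.53 and 0.49. The 7 subunits of complex I had a median of 0.36, with the highest value in MT-ND2 (0.64), and the lowest in MT-ND1 (0.31) and MT-ND6 (0.32), and MT-CYB of complex III rose by 0.27. Since mitochondrial transcripts could weigh on the scaling, the fit was repeated without them, and 47 nuclear-encoded members were again higher.

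Assembly factors, which build the complexes without staying in them, changed in both directions, with more of them higher. Of 49 tested, 22 were higher (44.9%) and 4 lower (8.16%), with a median of 0.23. Over all genes tested, 25.2% were higher and 23.6% lower. SDHAF3, for the iron-sulfur subunit of complex II, rose by 0.78, COX14 of complex IV by 0.57 and LYRM7, for the Rieske protein, by 0.57. The 4 lower genes were TTC19 of complex III (-0.44), COX19 (-0.32) and COX11 (-0.24) of copper delivery to complex IV, and TIMMDC1 of complex I (-0.31). COX19 was not called without control replicate 1 (-0.31) or shMUC1 replicate 1 (-0.27). Of the 5 tested OXPHOS subunits or isoforms outside the symbol patterns 1 was higher, COX7A2L (0.21), which joins complexes III and IV. COX4I1 (-0.031) and NDUFAB1 (0.036) were not called.

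Of 16 tested genes of electron carriers and coenzyme Q, 7 were higher and 3 lower, with a median of 0.078, beside 25.2% higher and 23.6% lower of all genes tested. CYCS, the cytochrome c that links complexes III and IV, had 438 ± 12.2 CPM in control and 356 ± 5.44 CPM in shMUC1 cells (SD, n = 3 per group) and fell by 0.30 on the log2 scale (SE 0.0316, adjusted p = 3.69e-10). COQ10B, a coenzyme Q binding protein, fell by 1.15 on the log2 scale (SE 0.0502, adjusted p = 1.01e-20), and PDSS1, which makes the side chain of coenzyme Q, fell by 0.47. COQ8B, ETFB and COQ3 rose by 0.65, 0.56 and 0.54. ETFB was not called without control replicate 2 (0.42).

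In the citric acid cycle and pyruvate dehydrogenase, which supply NADH and succinate, 11 of 18 genes were higher and 1 lower, with a median of 0.20. These were 61.1% and 5.56%, beside 25.2% higher and 23.6% lower of all genes tested. SUCLG2, a subunit of succinyl-CoA ligase, rose by 0.87 and OGDH (oxoglutarate dehydrogenase) by 0.38. CS encodes citrate synthase, an enzyme often used as a measure of mitochondrial content. The log2 fold change of its mRNA was -0.040 (SE 0.0305, adjusted p = 0.287), and mitochondrial content itself was not measured. IDH3A was lower (-0.22, adjusted p = 0.0475), a call that held in 8 of the 16 alternative fits given below. Among others, it was lost without control replicate 3 (-0.14), shMUC1 replicate 2 (-0.22) or shMUC1 replicate 3 (-0.18), and with DESeq2 (-0.22) or limma-voom (-0.22).

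Regulators of respiratory genes had 7 of 16 higher (43.8%), 0 lower in the main edgeR fit and a median of 0.16. Of all genes tested, 25.2% were higher and 23.6% lower. ESRRA, an estrogen-related receptor, rose by 0.43 (SE 0.0829, adjusted p = 4.69e-05), and the coactivators PPARGC1B and PPRC1 by 0.33 and 0.21. POLRMT, the mitochondrial RNA polymerase, rose by 0.22, SLIRP and LRPPRC, which stabilise mitochondrial mRNA, by 0.18 and 0.14, and TFAM, which packages mitochondrial DNA, by 0.12. The call of POLRMT was lost without control replicate 1 (0.17) or shMUC1 replicate 1 (0.18), and that of TFAM without control replicate 1 (0.11) or 3 (0.11) or shMUC1 replicate 2 (0.10). SLIRP was called without shMUC1 replicate 3 and lost its call, at 0.16 to 0.19, without any of the other 5 libraries. Of the 16 alternative fits given below, the call held in 14 for POLRMT, 11 for TFAM and 7 for SLIRP. NRF1 (-0.18, adjusted p = 0.112), GABPA (-0.013), GABPB1 (-0.11), YY1 (0.098), PPARGC1A (0.37, adjusted p = 0.0932), TFB1M (0.25), TFB2M (-0.10), TEFM (0.19) and MTERF1 (0.073) were not called. GABPB1 and TFB2M each kept this result in 15 of the 16 alternative fits and were called lower in the remaining fit.

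**Figure D5:**
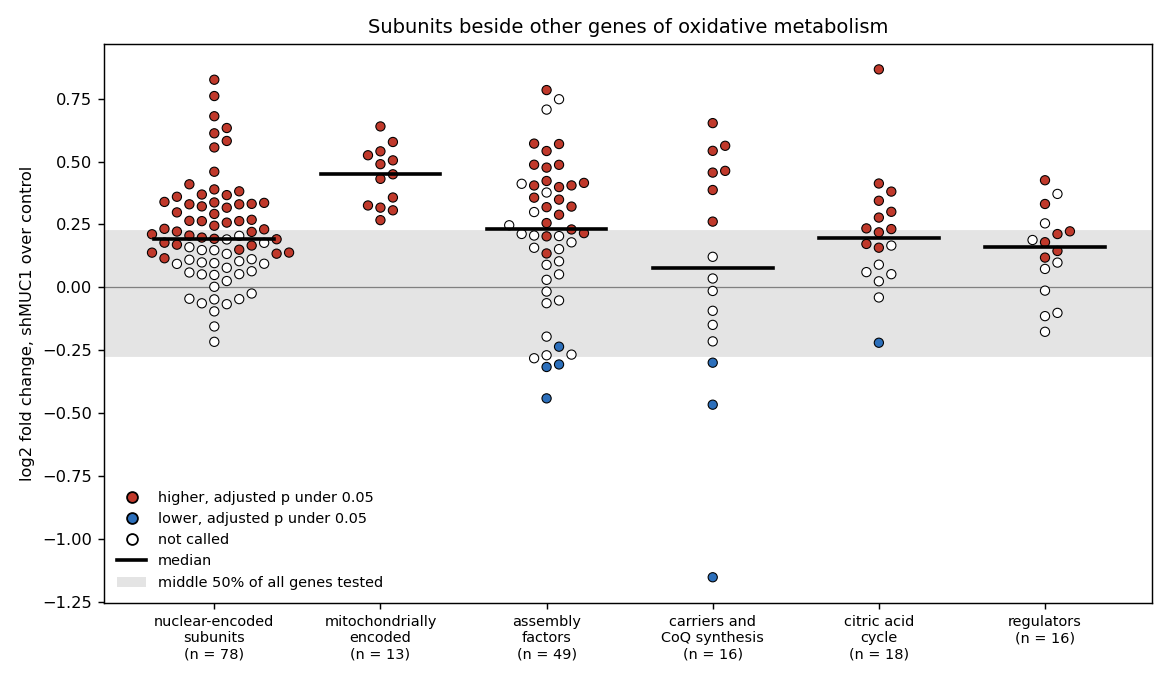
Log2 fold change (y axis, shMUC1 over control) of nuclear-encoded OXPHOS subunits and of 5 other lists of oxidative metabolism (x axis, with the number tested), with colours for higher and lower genes at an adjusted p under 0.05, bars for the median and a grey band for the middle 50% of all genes tested. All 13 mitochondrially encoded subunits lie between 0.27 and 0.64, and the lowest point is COQ10B at -1.15.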

How the data were processed

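RNA was measured in 6 libraries of MDA-MB-436 cells, 3 per group, made with a stranded mRNA kit. For each library the authors deposited 1 column of raw counts, with rows named by gene symbol. The submitters' processing notes name CASAVA 1.8.2, STAR 2.7.9a, featureCounts, DESeq2 1.24.0 and GRCh38.p7, and their roles, the annotation and the strand setting were not given in the sources used here. Genes were matched by symbol to GENCODE 29 (37186 of 37887 rows) for coordinates, exon length, overlaps and GC content.

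Counts were tested two-sided in R 4.3.3 with edgeR 4.0.16 and its quasi-likelihood test (TMM scaling, filterByExpr, group as the only term) over 15355 genes, with Benjamini-Hochberg adjustment and a threshold of 0.05. CPM used TMM-scaled library sizes. Libraries are called replicates because the labels describe triplicate cultures, and the p-values measure the spread between these libraries, which may be technical. Within a group, pairs of libraries differed by 2.79 to 5.55 chi-square per degree of freedom, so none was counted as a repeat. Floors cover counting error only, since reads carry no molecular identifiers.

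The members and lists were chosen with earlier results of these data known, and the lists were written from general knowledge. Lists are described by counts and medians, with no set test. Named were MUC1, in each complex the 4 highest and 4 lowest called members with groups that do not overlap, all of complex II, the redox and catalytic subunits, the tissue-specific isoforms, the 3 highest and 3 lowest called genes of each other list and all regulators. Further members were named to account for more of the list. A member and a gene of another list that the rule picks are not reported here, and stay in the counts. Alternatives were scaling by DESeq2 size factors or by totals alone, a filter at a mean of 50 counts or none, the tests of DESeq2 1.42.0 and limma-voom (limma 3.58.1), the replicate number as a block, counts divided by 2, removal of mitochondrially encoded genes or of a trend on GC content and length, and leaving out each library in turn.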

Additional observations from a re-analysis of the deposited data

How the results depend on the processing

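Across the 16 alternatives, 40 to 48 members were higher, and 37 of the 47 were higher in all of them. Removing the trend on GC content and length gave 1 lower member (ATP5MC2) and medians of 0.16 for complex II and 0.083 for complex IV. Library totals only gave medians of 0.18 for complex III and 0.14 for complex V, a mean of at least 50 counts gave 0.18 and 0.14, and limma-voom gave 0.19 for complex V. With 1 library left out, 44 to 47 members were higher and 0 lower by edgeR, and medians ran from 0.18 to 0.23 in complex I, 0.20 to 0.26 in complex II, 0.16 to 0.22 in complex III, 0.14 to 0.22 in complex IV and 0.13 to 0.24 in complex V. The cause was not tested.

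Replicate numbers did not pair the libraries, with correlations of same-numbered deviations of 0.0049, -0.032 and -0.038, and the fit with a replicate block gave 48 higher and 0 lower members by edgeR. NDUFV2, near 0 in every fit, changed sign with DESeq2 size factors (-0.00112), library totals only (-0.020), DESeq2 (-0.00277), the replicate block (-0.00694) and the GC and length trend removed (-0.072). With 1 library left out, NDUFV2 ran from -0.10 to 0.081, COX6B2 from -0.70 to 0.28 and GABPA from -0.077 to 0.040. Without the GC and length trend NDUFC1, ATP5F1B, COX7A2, ATP5PB and UQCRH were not called, nor were COX6B1, NDUFS4 and NDUFA3. Depth limits the members with a mean under 100 counts.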
